A study of Mus musculus with 4 samples.

Results

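The population described here is the set of circulating neutrophils of 3 tumor-bearing mice, as recovered from a single Drop-seq library of blood. Drop-seq captures single cells in droplets on barcoded beads and counts RNA molecules through unique molecular identifiers (UMIs). A barcode of the blood table was taken as a cell when it had at least 200 detected genes and at most 15% of its UMIs in mitochondrially encoded genes, whatever its hashtag counts. Of 10000 blood barcodes, 1541 had at least 200 genes, 7 of these were over the mitochondrial limit, and 1534 (15.3%) were kept. The same rule kept 947 barcodes of the tumor table, so the blood cells are 1534 of 2481 cells in the series.

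All mice were FVB animals, an inbred strain, and their tumors came from the mouse mammary tumor line Py7160, which had been injected. No treatment is named, there is no tumor-free mouse in the samples used here, and the labels give neither age nor sex of the mice. Blood and tumors of about 1 cm diameter came from the same animals 2 to 3 weeks after injection, blood after lysis of red cells and tumors after digestion with enzymes. Cells of either tissue were enriched on beads through the neutrophil surface protein Ly-6G to about 90% purity, stained with a different hashtag antibody for each mouse, pooled by tissue, and sorted as CD11b+ Ly6G+ to over 99% purity. Each tissue is thus 1 RNA library and 1 hashtag library. The mice are the replicates, and every p-value below measures the spread between 3 mice whose cells of a tissue share a library. Between tissues, with 1 library for each, no p-value covers the spread between libraries.

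Neutrophils are short-lived phagocytes that mature in the bone marrow and leave it for the blood when nearly or fully mature. Their granule proteins are made in sequence: primary granule enzymes in promyelocytes, secondary granule proteins such as cathelicidin and lactoferrin in myelocytes and metamyelocytes, and gelatinase granule proteins later still. Transcription of the secondary granule genes is largely shut off before release, so their mRNA in a circulating neutrophil is read as a sign of a younger cell. Mature cells carry the chemokine receptor Cxcr2 and the cytosolic S100a8 and S100a9 proteins in large amounts.

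The hashtag sequences decide which mouse a cell belongs to, and they are therefore shown as deposited, in lower case throughout.
Mouse 1: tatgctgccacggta
Mouse 2: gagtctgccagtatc
Mouse 3: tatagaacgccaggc
Pairs of these tags differ at 7, 9 or 12 of 15 positions. A cell was given to a mouse when its top hashtag had at least 10 counts and at least 70% of the hashtag counts of that barcode. This assigned 511, 456 and 408 cells to mice 1, 2 and 3, with 430605, 371644 and 325689 UMIs after hemoglobin genes were left out. The median cell had 664, 639 and 637.5 UMIs in these mice. Of the other 159 cells, 5 had under 10 hashtag counts and 154 had no hashtag at 70%. How many of these were mixtures of cells from different mice was not measured. Doublets were treated in no other way, and hashtags cannot show those of cells from the same mouse. Hemoglobin genes made up 1.70% of the UMIs of the 1534 cells, and blood and tumor cells shared 0 barcodes. Just outside the gene limit were 62 barcodes with 190 to 199 genes (median 329 UMIs), and just inside it 61 with 200 to 209 genes (median 331 UMIs).

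The 159 cells without a mouse resembled the assigned cells in their main transcripts, and they had less of the secondary granule mRNAs. Levels are given as UMIs of a gene per 1000000 UMIs of the summed cells (CPM). S100a8 stood at 85230 CPM in unassigned cells, against 90960 ± 7687 in assigned cells (SD, n = 3 mice). Camp, the cathelicidin gene, stood at 482.6 CPM in unassigned cells, against 3366 ± 1723 in assigned cells. These cells belong to no mouse and enter no test.

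The label was checked against markers of neutrophils and of other cell types that blood could hold. S100a8, S100a9, Cxcr2, Csf3r, Retnlg and Mmp8 together took 205700, 210800 and 181100 CPM in mice 1, 2 and 3. In 6739 barcodes with 20 to 60 UMIs, which stand for free RNA, they took 54330. T cell markers summed to 225, 293 and 89.0 CPM in the cells, against 51.3 in the free RNA, and B cell markers to 18.6, 24.2 and 58.3, against 0. Monocyte markers summed to 107, 96.9 and 135 CPM, against 68.5 in the free RNA. Macrophage markers summed to 153, 178 and 215 CPM, against 59.9 in the free RNA. Only 3 of the 6 macrophage markers are listed among the blood genes, and C1qa, C1qb, C1qc and Mrc1 gave no UMI. Markers of other cell types were thus low beside those of neutrophils, and these 4 sums were above the free RNA in every mouse. Platelet markers summed to 20.9, 16.1 and 3.07 CPM in the cells, below the 453.5 of the free RNA. Eosinophil markers summed to 48.8, 24.2 and 61.4 CPM, against 17.1 in the free RNA, without Epx and Prg2, which are not listed among the blood genes. Progenitor markers summed to 9.29, 21.5 and 12.3 CPM, against 4.28 in the free RNA, and their 16 UMIs were of Prtn3 and Kit. Mpo was at 0 in the 1375 assigned cells, where the limit that 0 counts allow, 3 counts, is 2.66 CPM. Epx, Prg2, Elane and Cd34 are not listed among the blood genes, so this limit does not apply to them. Whether a missing gene stands for a count of 0 is not given.

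A small set of cells did not carry the neutrophil program. In 34 of the 1534 cells (2.22%) the 6 neutrophil markers took less than 1% of UMIs, while the median over all cells was 16.0%. The 33 of them with a mouse, 10, 15 and 8 in mice 1, 2 and 3, held lymphocyte genes. The T cell receptor gene Trbc2 had 70 UMIs in these 33 cells and 1 UMI in the other 1342 cells, and the MHC class II gene H2-Aa had 25 UMIs in them and 0 in the others. Cd3d, also counted in the T cell sum above, went the other way, with 15 UMIs in them and 116 in the others. Ribosomal protein genes took 101450 CPM in them and 8267 in the other cells. The next cells up, with 1 to 2% of UMIs in the markers, were unlike them: their median ribosomal share was 0.999%, against 8.35% in the 33 cells. The 33 cells stay in all results, as the rule keeps them, and results are given without them where they matter.

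The calprotectin genes dominated the mRNA of the circulating cells. S100a8 took 92995, 97424 and 82459 CPM in mice 1, 2 and 3, a mean of 90959 ± 7687 (SD, n = 3), and S100a9 took 86165, 91641 and 76008. These genes, neighbors on chromosome 3 (S100a8 at chr3:90668978-90670035, + strand, GENCODE M21 on GRCm38), encode a calcium-binding heterodimer that makes up a large part of neutrophil cytosolic protein. Together they held 17.9, 18.9 and 15.9% of all UMIs. The 20 most abundant genes, chosen without mitochondrial genes, held 33.9, 33.8 and 32.1%. With mitochondrial genes counted, as few as 75, 77 and 87 genes held 50% of the UMIs. A UMI marks a molecule, so levels are compared between genes without scaling by length.

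With mitochondrial genes left out, Malat1, a nuclear long noncoding RNA, and the genes of the actin cytoskeleton came behind the S100 genes. Malat1 had 29923, 26566 and 33474 CPM, below the 36180 of the free RNA. Tmsb4x, which encodes the actin-sequestering thymosin beta 4, had 18748, 19161 and 18782, and Actb, beta actin, had 17898, 18119 and 17931. The actin genes varied least between mice among these leading transcripts: the SD over mice was 229 for Tmsb4x and 119 for Actb. Retnlg, the resistin-like gamma gene of mouse granulocytes, varied more, with 17246, 12719 and 13442 CPM. Wfdc17, a whey acidic protein family member, followed at 12436, 12504 and 14066.

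The next ranks were held by inflammatory and receptor genes. Il1b, the gene of the cytokine interleukin-1 beta, had 6728, 5546 and 7605 CPM. Cxcr2, the receptor for the neutrophil-attracting CXC chemokines, had 6203, 5995 and 6110, a mean of 6103 ± 104 that was close to the 5454 of the free RNA. Below them the mean fell to between 5243 for Ifitm1, an interferon-induced membrane protein gene, and 3591 for S100a6. Between these lay B2m and H2-D1 of MHC class I, Wfdc21, the signaling adaptor Tyrobp, S100a11, the granule proteoglycan gene Srgn, the leukocyte phosphatase gene Ptprc, Msrb1, a methionine sulfoxide reductase gene, and the ferritin gene Fth1. Ptprc averaged 4488 CPM in the cells and 5980 in the free RNA, so that among the 20 genes it shares with Malat1 a higher level outside the cells.

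Under the main model of variance, the genes that varied most between cells were granule, S100 and cystatin-family genes. Variation was measured in each mouse as the variance of Pearson residuals, which is near 1 when a gene differs between cells only through depth and sampling, and was averaged over mice. Over 2497 genes with at least 50 UMIs the median was 1.24, the 95th percentile was 1.75, and 66 genes were over 2. Cells are not replicates here, so these values are descriptions without a test.

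Retnlg led with 15.1, 13.5 and 13.2 in mice 1, 2 and 3, ahead of S100a8 at a mean of 13.6 and S100a9 at 10.8. Ngp, which encodes the secondary granule protein neutrophilic granule protein, had 13.03, 12.7 and 8.05, and Camp had a mean of 10.6. Ltf, the lactoferrin gene, had 6.38, and Lcn2, which encodes the iron-carrier-binding lipocalin 2, had 5.11. Lyz2, the lysozyme gene of myeloid cells, had 5.27. Every one of the 20 leading genes was among the top 50 in each of the 3 mice. The places of the S100 genes depended on the variance model, a negative binomial with theta 100. With theta 10, S100a8 fell to rank 21 at 2.92, S100a9 to rank 30 at 2.40 and S100a6 to rank 23 at 2.60. Ngp, Camp and Retnlg led there at 9.17, 8.92 and 6.17.

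The shape of the variation differed between the S100 genes and the granule genes. The 10% of cells with most Camp UMIs held 100, 99.95 and 100% of its UMIs in mice 1, 2 and 3, and 1 cell held 437 of them. For S100a8 the top 10% of cells held 40.2, 40.3 and 40.2%, and for Retnlg it held 59.7, 56.6 and 62.3%. Camp was thus carried by few cells, and S100a8 was present in 97.6% of cells outside the low-marker set and uneven among them. A Camp UMI was found in 3.03% of the 33 low-marker cells at a median of 633 UMIs, against 8.87% of the other 1342 cells at a median of 648.5. S100a8 was among the markers that chose the low-marker cells, so their share with an S100a8 UMI, 48.5%, was held down by that choice and is no measure of background.

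Cstdc5, Cstdc4 and Stfa2l1, stefin-type inhibitors of cysteine proteases, were also among the 20, at 5.26, 4.78 and 4.55. They belong to a family of near-identical copies whose reads the counting may have split or dropped, so their single values are uncertain. Wfdc17, Malat1, Ifitm6, Ifitm1, Il1b, S100a6 and Wfdc21 had between 6.07 and 3.48. The ribosomal protein genes Rps24 at 3.84 and Rps19 at 3.43 entered through the low-marker cells, which held 48.8% and 62.8% of their UMIs. Without these cells Stfa2 and Saa3, an acute-phase serum amyloid gene, took their places at 3.32 and 2.91. A high level alone did not put a gene among the 20. Cxcr2 had 1.73, Actb 1.79 and Tmsb4x 1.79, values near the 95th percentile of 1.75 and above the median of 1.24.

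**Figure D1:**
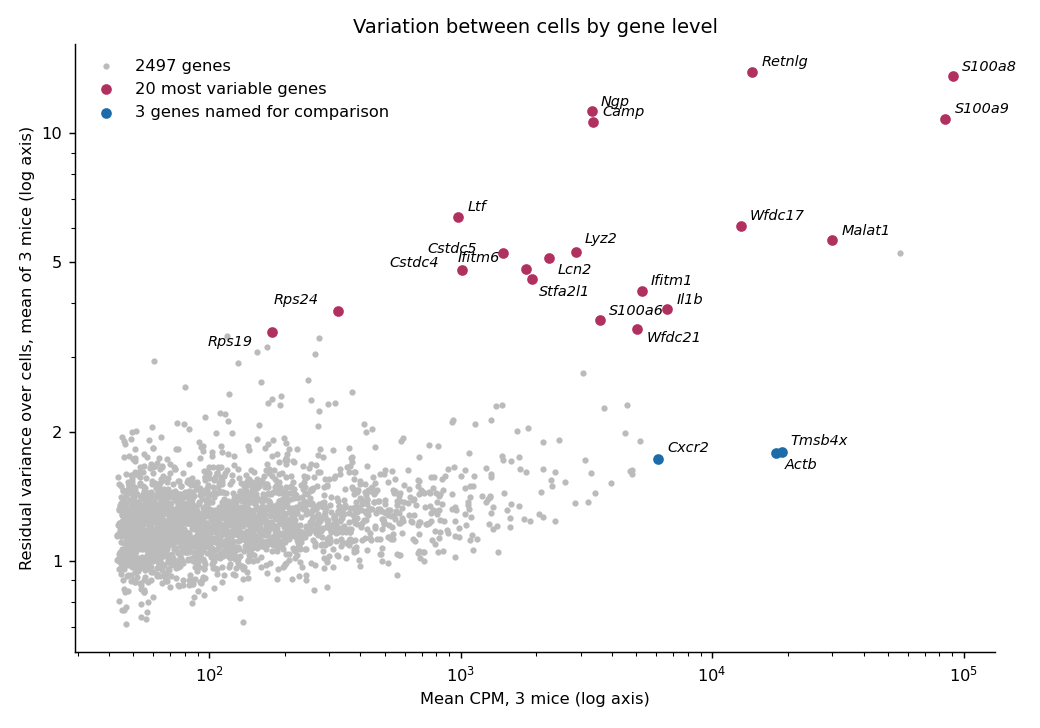
Residual variance over cells (mean of 3 mice, log axis) against mean level in CPM (log axis) for 2497 genes, with the 20 most variable genes in red and 3 abundant genes in blue. Most genes lie near the median of 1.24; Retnlg, S100a8, Ngp, S100a9 and Camp lie above 10, and the gray point at the right is the mitochondrial ribosomal RNA mt-Rnr2.

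Maturation was approximated with 8 early granule genes, which in the gradient served only to rank the cells. They were Camp, Ngp, Ltf, Lcn2, Wfdc21, Ifitm6, Chil3, which encodes a chitinase-like protein of immature neutrophils, and Cd177, which encodes a neutrophil surface glycoprotein. Camp had 3249, 5145 and 1704 CPM in mice 1, 2 and 3, and Ngp had 3307, 4564 and 2076. Ltf had 994, 1337 and 605, and Lcn2 had 2596, 2341 and 1802. For Camp, Ngp and Ltf, mouse 2 was highest and mouse 3 lowest, while for Lcn2 mouse 1 was highest. Wfdc21 had the most UMIs of the 8 genes, 5747, and was found in 62.8, 66.7 and 60.5% of the cells of mice 1, 2 and 3. Camp was found in 9.20, 10.1 and 6.62% and Ltf in 6.26, 5.92 and 4.17%, so Wfdc21 weighed on the rank of more cells.

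The UMIs of the 8 genes were concentrated in a few deep cells of every mouse. At least 5% of UMIs came from the 8 genes in 22, 15 and 8 cells of mice 1, 2 and 3, which is 4.31, 3.29 and 1.96% of the cells. These cells held 59.9, 68.8 and 50.04% of all UMIs of the 8 genes. Their median depth was 2163, 2551 and 1994 UMIs, against 644, 628 and 631 in the other cells. A higher RNA content of a cell and a doublet of cells of the same mouse cannot be told apart from depth alone. At the other end, 136, 105 and 118 cells had no UMI of the 8 genes, and the median cell had 0.366, 0.305 and 0.280% of its UMIs in them.

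The promoters of the secondary granule genes with the most concentrated mRNA, and of Lcn2, are shown because these genes define the upper end of the ranking. The sequences are the 250 bases before the gene start of RefSeq on GRCm38.p6, 5′ to 3′ on the strand of the gene. These starts differ from those of GENCODE M21, used for other coordinates here. The Lcn2 window lies inside the GENCODE gene, which begins at 32388252 on the - strand. The Camp, Ngp and Ltf windows overlap their GENCODE genes in part, and the GENCODE start of Ngp, 110419747, lies before its second match. Capitals mark matches to TTGCNNAA or its reverse complement TTNNGCAA, a form of the motif bound by C/EBP factors, which drive granule genes in maturing neutrophils.
Camp (chr9:109849457-109849706, - strand): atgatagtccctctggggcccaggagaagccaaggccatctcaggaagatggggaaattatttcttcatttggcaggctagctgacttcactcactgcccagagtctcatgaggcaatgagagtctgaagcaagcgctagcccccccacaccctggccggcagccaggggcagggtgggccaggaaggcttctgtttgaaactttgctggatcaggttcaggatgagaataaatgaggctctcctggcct
Ngp (chr9:110419558-110419807, + strand): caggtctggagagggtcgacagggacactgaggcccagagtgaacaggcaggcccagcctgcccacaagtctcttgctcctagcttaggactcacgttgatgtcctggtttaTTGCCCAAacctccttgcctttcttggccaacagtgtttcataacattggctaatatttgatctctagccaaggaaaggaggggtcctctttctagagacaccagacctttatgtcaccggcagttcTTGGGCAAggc
Ltf (chr9:111019042-111019291, + strand): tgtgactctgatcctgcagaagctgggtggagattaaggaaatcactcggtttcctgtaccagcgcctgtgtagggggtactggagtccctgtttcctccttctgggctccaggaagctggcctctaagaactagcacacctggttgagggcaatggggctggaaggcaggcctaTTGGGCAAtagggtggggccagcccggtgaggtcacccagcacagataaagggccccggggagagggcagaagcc
Lcn2 (chr2:32387740-32387989, - strand): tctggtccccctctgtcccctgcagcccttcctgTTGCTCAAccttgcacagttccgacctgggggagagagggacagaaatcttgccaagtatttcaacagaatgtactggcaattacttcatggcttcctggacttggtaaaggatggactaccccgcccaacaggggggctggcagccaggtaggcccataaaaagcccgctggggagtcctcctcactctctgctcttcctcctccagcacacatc
Ngp has 2 matches, which begin 138 and 11 bases before the start, Ltf has 1 at 75 bases and Lcn2 has 1 at 216 bases, while the Camp window holds none of these letters. Over the ranking genes, 3 of the 7 with a promoter in the table hold a match, beside 2582 of 27025 promoters (9.55%). A match describes letters and says nothing of binding.

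To test what else moved with these genes, the cells of each mouse were ordered by the share of their UMIs in the 8 genes and split into 3 ranges of equal size. The top range is called early-rich and the bottom range early-poor, with 170, 152 and 136 cells in each for mice 1, 2 and 3. These are ranges of a score and not cell types: 33, 37 and 22 early-rich cells and 122, 97 and 118 early-poor cells lay within 1 UMI of the boundary. In early-rich cells of mice 1, 2 and 3 the share began at 0.684, 0.528 and 0.518%, with a median of 1.24, 1.04 and 1.00%. The early-rich range is thus wider than the set of cells with Camp mRNA. UMIs were summed by mouse and range without the 8 genes and without hemoglobin, and edgeR's quasi-likelihood test was applied to the 6 sums with the mouse as a block. Levels along this gradient are CPM after TMM scaling, a correction for differences in composition.

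Early-rich cells had more UMIs. The median cell had 1040, 889 and 893 UMIs in the early-rich range of mice 1, 2 and 3, against 556.5, 580 and 520.5 in the early-poor range. The mean difference was 388 ± 88.3 UMIs (SD, n = 3 mice), and it was positive in all 3, with an exact two-sided permutation p of 0.25 that is the smallest this design allows. The median mitochondrial share was 4.73, 4.40 and 5.35% in early-rich cells, against 6.67, 6.28 and 6.64% in early-poor cells. Of the early-poor cells, 136, 105 and 118 had no UMI of the 8 genes, which is more likely in a shallow cell. The ranking can thus itself place shallow cells in the early-poor range, and how much of the depth gap this gives was not tested. Depth and rank moved together, and results are also given after each cell was thinned to 487 UMIs, which left out 341 shallower cells and kept 1034.

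Of 1706 genes tested, 253 (14.8%) were higher and 166 (9.73%) lower in early-rich cells at an edgeR adjusted p under 0.05. The direction was the same in all 3 mice for 416 of these 419 genes, and for 906 of the 1706 (53.1%). The median log2 fold change of all genes was 0.02. Without the low-marker cells, 243 (15%) and 169 (10.4%) of 1625 genes were called, and 228 and 124 of them were the same genes as before. After thinning, 99 higher and 70 lower calls were made among 802 genes, of which 98 and 52 were among the first calls. DESeq2 called 111 and 43, all of them also called by edgeR. When cells were ranked by Camp, Ngp and Ltf alone, 116 higher and 58 lower calls were made among 1675 genes. Without the cells that had at least 5% of UMIs in the ranking genes, 211 higher and 136 lower calls were made, of which 190 and 118 were among the first calls. The counts for lists below are to be read beside these shares of all genes tested.

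The number of calls rested on having 3 mice, and on mouse 2 most. Without mouse 2, 64 genes were called higher and 10 lower, against 197 and 112 without mouse 1 and 261 and 175 without mouse 3. Of 80 called genes that are named below and were tested without mouse 2, all 80 kept their direction, 34 kept their call and 46 lost it. The log2 fold changes of the 46 moved by at most 0.57. The genes named below that kept their call in this fit are Mmp8, Ly6g, Lyz2, Retnlg, S100a8, S100a9, S100a6, Ly6a2, Gclm, Serpinb1a, Padi4, Adpgk, Ly6c2, Cybb, Anxa1, Pglyrp1, Prdx5, Mgst1, Aldh2, Tkt, Arhgdib, Mmp9, Mmp25, Fpr1, Fpr2, Ncf1, Pygl, Msn, Jund, Gngt2, Rpl14, Slfn4, Ifitm3 and Stfa2.

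The other early genes moved together with the ranking genes. Of 23 such genes, 18 passed the filter on low counts, and all 18 were higher in early-rich cells, with a median log2 fold change of 3.13. The list was chosen with earlier results of these data known, and its direction is therefore not independent evidence. The filter keeps a gene that is high enough in 1 range. Serpinb1a, with 104 UMIs in early-rich and 3 in early-poor cells, and Cybb, with 167 and 7, passed through early-rich cells alone. For such members a rise was largely set by the filter. Without the filter 23 members were tested, 22 were higher, and the median was 3.02. After thinning, 16 members were tested, 16 were higher, and the median was 2.14. Without the cells over 5% of UMIs in the ranking genes, 17 were tested, 17 were higher, and the median was 2.11.

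Among the 10 largest increases were those of a protease, a surface antigen and lysozyme. Mmp8, which encodes the neutrophil collagenase, had 2643, 2209 and 2208 scaled CPM in early-rich cells, against 87.9, 177 and 101 in early-poor cells. The ranges of the 3 mice did not overlap, and the log2 fold change was 4.27 ± 0.21 (SE; adjusted p of edgeR = 8.42e-12). Ly6g, the gene of the antigen on which the cells had been sorted, had 1011, 835 and 478 in early-rich cells, against 29.3, 55.3 and 12.6 in early-poor cells. Its log2 fold change was 4.54 ± 0.31 (adjusted p of edgeR = 2.04e-09), although every cell had been selected for the surface protein. Lyz2 had 8024, 7708 and 5710 in early-rich cells, against 459, 697 and 264 in early-poor cells, a log2 fold change of 3.93 ± 0.15 (adjusted p of edgeR = 4.24e-13). Without the cells over 5% of UMIs in the ranking genes, Lyz2 stood at 2.99.

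The most abundant genes of the population took part in the gradient as well. Retnlg had 41846, 29161 and 29995 scaled CPM in early-rich cells, against 3338, 3697 and 3334 in early-poor cells. The gap of 3.27 ± 0.12 on the log2 scale (edgeR adjusted p = 2.17e-13) exceeded the spread between mice. S100a8 had 186330, 192710 and 155020 in early-rich cells, against 38889, 50140 and 35122 in early-poor cells, and its log2 fold change was 2.12 ± 0.08 (adjusted p of edgeR = 4.24e-13). S100a9 changed by 1.79, S100a6 by 2.84 and S100a11 by 0.74 on the log2 scale in the same direction. Over 5 bins of cells from the lowest to the highest early-granule share, S100a8 of mouse 1 stood at 36498, 47290, 84664, 134640 and 222950, so it climbed in every bin. Ly6g of mouse 1 stood at 39.2, 15.5, 66.3, 219 and 1446, most of it in the highest bin, as did Mmp8 and Lyz2.

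**Figure D2:**
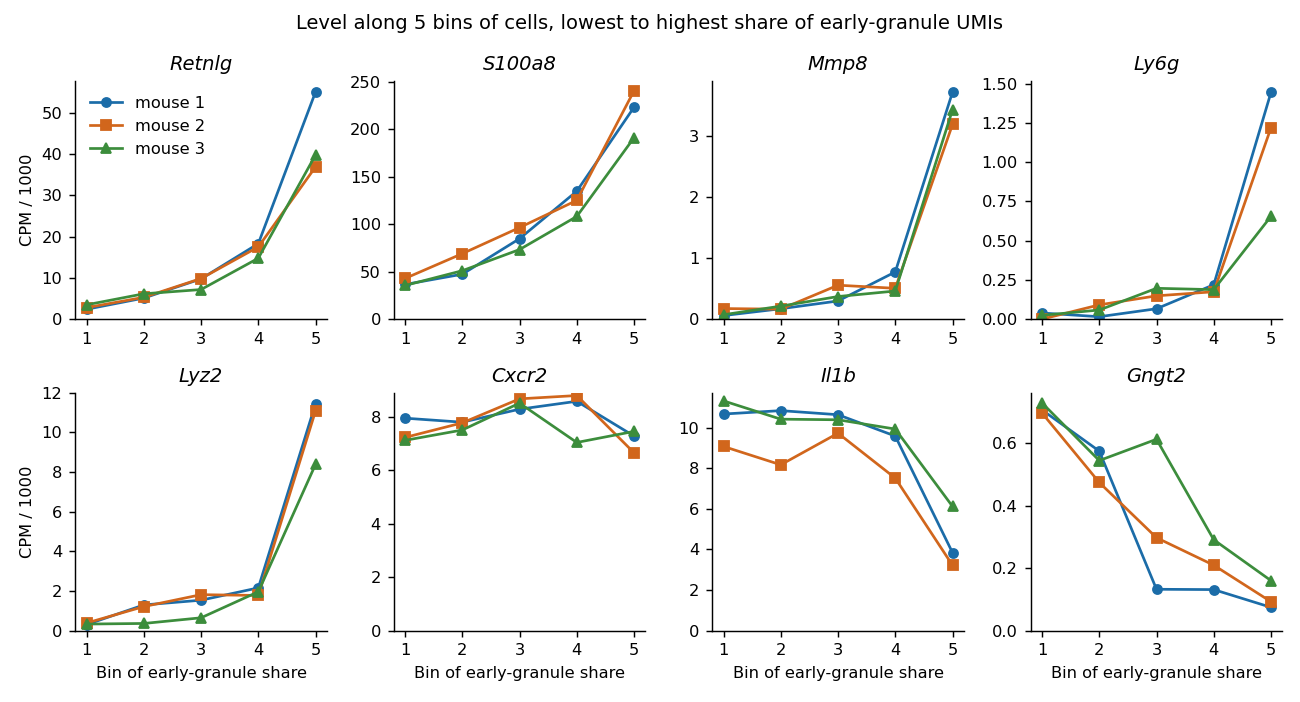
Level of 8 genes in CPM after TMM scaling, divided by 1000, over 5 equal bins of cells, from the lowest (1) to the highest (5) share of UMIs in the 8 ranking genes, with a line for each mouse. Retnlg and S100a8 climb through all bins, Mmp8, Ly6g and Lyz2 climb mainly in bin 5, Cxcr2 stays level, Il1b drops in bin 5 and Gngt2 declines along the bins.

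The 10 largest increases also held Cybb, Ly6a2, Gclm, Serpinb1a, Padi4, Adpgk and Ly6c2. Ly6a2, a Ly6-family gene with no coordinates in the annotation used, had 566, 472 and 435 scaled CPM in early-rich cells, against 0, 22.1 and 0 in early-poor cells, the largest log2 fold change of the called genes at 5.87 ± 0.48. Gclm, a subunit of the enzyme that makes the precursor of glutathione, had 256, 152 and 200 in early-rich cells, against 0, 11.1 and 0 in early-poor cells (log2 fold change 5.42). Ly6a2 rests on 2 UMIs in early-poor cells and Gclm on 1, so the size of these folds is poorly set. Both passed the filter on low counts through early-rich cells alone. The ratio of summed UMIs was 50.9 (exact 95% interval 13.9 to 424) for Ly6a2 and 42.3 (7.38 to 1690) for Gclm, intervals that cover counting error only. For Serpinb1a, an inhibitor of neutrophil serine proteases, with 3 UMIs in early-poor cells, it was 18.6 (6.19 to 91.6). For Padi4, the histone-citrullinating enzyme of neutrophils, with 2 UMIs in early-poor cells, it was 17.4 (4.63 to 147). Adpgk, an ADP-dependent glucokinase gene, changed by 4.26 on the log2 scale. Ly6c2, a surface antigen of monocytes and immature granulocytes, changed by 3.94. Each of these genes kept its call in all alternatives in which it was tested.

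Smaller increases filled the rest of the early list. Anxa1, which encodes the anti-inflammatory annexin A1, rose by 1.98 on the log2 scale, Pglyrp1, a bactericidal peptidoglycan-binding granule protein gene, by 1.47, and Prdx5, a peroxiredoxin gene, by 1.76. Mgst1, a microsomal glutathione transferase gene, rose by 3.88, and Aldh2, a mitochondrial aldehyde dehydrogenase gene, by 2.99. Tkt, transketolase of the pentose phosphate pathway, rose by 2.27. Hp, the haptoglobin gene, rose by 0.55 (edgeR adjusted p = 0.000648), the smallest change of the 18 members. Cebpe, the C/EBP factor of late granulocyte development, had 18 UMIs in early-rich cells and 0 in early-poor cells and was too low to be tested.

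Most members of the gelatinase granule list, a class made later than the secondary granule genes, were also higher in early-rich cells. Of 8 members 7 rose, with a median log2 fold change of 0.97. Slc11a1, a metal transporter gene of phagosomes, at -0.30, did not pass (edgeR adjusted p = 0.223). Mmp8 and Hp, which rose, are also on the early list and so are not separate from it. After thinning 5 of 7 rose, with a median of 0.695, and 3 of 7 when low-marker cells were also left out, with a median of 0.581. Mmp9, the gelatinase itself, had 1524, 1054 and 947 scaled CPM in early-rich cells, against 576, 398 and 352 in early-poor cells (log2 fold change 1.41 ± 0.15, edgeR adjusted p = 1.43e-06). Mmp25, a membrane-bound metalloprotease gene, changed by 2.39. Itgam and Itgb2, the chains of the integrin CD11b/CD18, changed by 0.75 and 0.82. Without mouse 2 these last calls were lost, at 0.82 and 0.93. After thinning Itgam stood at 0.11 with an edgeR adjusted p of 0.812.

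Primary granule genes were close to absent. Of 9 such genes, which include progenitor genes, 5 are listed in the blood table and none passed the filter. Mpo, myeloperoxidase, had 0 UMIs in both ranges, Prtn3, the proteinase 3 gene, had 2 UMIs in early-rich cells and 0 in early-poor cells, and Kit, the stem cell factor receptor gene, had 8 and 0. The cell cycle list gave 1 tested gene of 15: Hmgb2, a chromatin protein gene that is also expressed outside division, rose by 0.80. Mki67, the proliferation marker, had 6 UMIs in early-rich cells and 1 in early-poor cells.

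The receptors of mature neutrophils behaved differently from one another. Cxcr2 had 7458, 7075 and 6927 scaled CPM in early-rich cells, against 6999, 6907 and 6630 in early-poor cells, and the ranges overlapped. Its log2 fold change of 0.06 ± 0.09 did not pass (edgeR adjusted p = 0.666). Csf3r, the receptor of the growth factor G-CSF, had 1773, 2142 and 2373 in early-rich cells, against 2997, 2468 and 2692 in early-poor cells, each mouse being lower in early-rich cells (log2 fold change -0.39 ± 0.13, edgeR adjusted p = 0.0286). The call of Csf3r was lost in 6 alternatives.

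Formyl peptide and leukotriene receptors were higher in early-rich cells. Fpr1 and Fpr2, receptors for bacterial formylated peptides, changed by 1.94 and 1.96 on the log2 scale. Fpr2 had 1092, 1096 and 921 scaled CPM in early-rich cells, against 234, 343 and 226 in early-poor cells. Ltb4r1, the leukotriene B4 receptor gene, changed by 1.42, and without mouse 2 by 1.31 with its call lost (edgeR adjusted p = 0.176). In all, 9 of 22 tested receptor genes rose, 2 fell and 11 did not pass, with a median of 0.25. Among those that rose, Ly6g is also on the early list, and Itgam and Itgb2 are on the gelatinase granule list. After thinning 4 of 17 rose and 1 fell, with a median of 0.11.

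Genes of the respiratory burst were higher in early-rich cells in part. Of 8 NADPH oxidase genes 5 rose (median 0.60), against 2 of 7 after thinning (median 0.43) and 1 of 7 when low-marker cells were also left out. Over all genes tested, 253 of 1706, 99 of 802 and 89 of 766 rose in these fits. The last count of the list was thus near the share of all genes. Cybb, the catalytic subunit, had 512, 464 and 313 scaled CPM in early-rich cells, against 29.3, 22.1 and 25.2 in early-poor cells (log2 fold change 4.03 ± 0.35, edgeR adjusted p = 5.7e-08). Without the cells over 5% of UMIs in the ranking genes it stood at 2.29. Cybb is also on the early list and so is not separate from it. The cytosolic subunit gene Ncf1 changed by 1.72, while Ncf4 and Rac2 changed by 0.88 and 0.76 and lost their calls without mouse 2, at 0.93 and 0.87. The subunits of 1 enzyme complex thus differed in the size of their change along the gradient.

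Actin and motility genes gave 12 higher and 1 lower of 21 tested members, with a median of 0.46. After thinning 7 were higher and 1 lower with a median of 0.26, and DESeq2 called 5 higher and 1 lower. Arhgdib, an inhibitor of small GTPases that is also on the early list, rose by 1.38. Vasp, which promotes filament growth, rose by 1.14, Was, the activator of actin branching that is lost in Wiskott-Aldrich syndrome, by 0.99, and Arpc5 of the branching complex by 0.87. Lcp1, the gene of the actin bundler plastin, rose by 0.55 and Actb by 0.54. Tmsb4x at 0.23 did not pass (edgeR adjusted p = 0.0549). The exception was Msn, which encodes moesin, the linker between membrane and actin. Msn had 1301, 1383 and 1339 scaled CPM in early-rich cells, against 2294, 2258 and 2403 in early-poor cells (log2 fold change -0.79 ± 0.12, edgeR adjusted p = 4.85e-05), and it kept its call in all 18 alternatives. Without mouse 2 the calls of Vasp, Was, Arpc5, Lcp1 and Actb were lost, at log2 fold changes of 1.10, 0.71, 0.95, 0.60 and 0.58.

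Glycogen and glycolysis genes gave 6 higher of 10 tested members (median 0.91), against 1 of 7 after thinning (median 0.44) and 3 of 10 with DESeq2. Over all genes tested, 253 of 1706, 99 of 802 and 111 of 1706 rose in these fits. The thinned count of the list was thus near the share of all genes. Hk3, the hexokinase of myeloid cells, changed by 1.99, Slc2a3, a glucose transporter gene, by 1.43, Pygl, glycogen phosphorylase, by 1.00, and Pkm, pyruvate kinase, by 0.82. Without mouse 2 the calls of Hk3, Slc2a3 and Pkm were lost, at 2.11, 1.28 and 0.89. After thinning Slc2a3 stood at 0.68 (edgeR adjusted p = 0.273) and Pkm at 0.53 (edgeR adjusted p = 0.057). Gapdh had 3 UMIs in each range and Pgam1 had 1 in each, far below what these genes usually give. Both have many near-identical pseudogene copies, and their levels are uncertain because the sources used here do not say how such reads were counted.

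The genes lower in early-rich cells included inflammatory and immediate early genes. Il1b had 5239, 4596 and 7266 scaled CPM in early-rich cells, against 9937, 7836 and 10001 in early-poor cells. The ranges did not overlap, and the log2 fold change was -0.72 ± 0.10 (adjusted p of edgeR = 3.26e-05). Over the 5 bins Il1b of mouse 2 stood at 9068, 8165, 9720, 7509 and 3223, so that the drop was in the highest bin, as in the other mice. Jund, a subunit of the AP-1 transcription factor, had 405, 472 and 409 in early-rich cells, against 800, 719 and 1044 in early-poor cells (log2 fold change -0.98 ± 0.17, edgeR adjusted p = 0.000321). Its call held in all 17 alternatives in which it was tested, whereas the call of Il1b was lost without mouse 2 at a log2 fold change of -0.68 (adjusted p of edgeR = 0.0941).

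Of 11 tested immediate early genes 5 fell and 6 did not pass, with a median of -0.46. Ier3, a stress-induced survival gene, stood at -1.22, Zfp36, which encodes an mRNA-destabilizing protein, at -0.57, Junb at -0.53 and the Krüppel-like factor gene Klf6 at -0.50. Fos, at -0.13, did not pass (edgeR adjusted p = 0.658). The calls of Ier3, Zfp36, Junb and Klf6 were not made by DESeq2 and were lost without mouse 2, at -1.29, -0.53, -0.41 and -0.41.

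The list of late genes did not move as a block. Of 19 tested members 8 fell, 3 rose and 8 did not pass, with a median of -0.16. Without the cells over 5% of UMIs in the ranking genes 2 fell and 4 rose, and with DESeq2 3 fell and 1 rose. Besides Il1b, Jund, Junb and Csf3r, those that fell were Malat1 at -0.36, the antiproliferative gene Btg1 at -0.55, Fxyd5, a regulator of the sodium pump, at -0.39, and Srgn at -0.33. Wfdc17 rose by 0.61 and Neat1, the scaffold RNA of paraspeckles, by 0.91. Ferritin and MHC genes of the list, Fth1, Ftl1 and H2-D1, lay between -0.25 and -0.00 and did not pass. Among other abundant genes B2m stood at -0.53 and Ptprc at -0.48, and both fell. Malat1, Btg1, Fxyd5, Srgn, Wfdc17, Neat1, B2m and Ptprc each lost their call without mouse 2, where Malat1 stood at -0.33, B2m at -0.53 and Ptprc at -0.47. Without the cells over 5%, Malat1, Srgn, Csf3r, Junb, Btg1 and Fxyd5 lost theirs, at -0.21, -0.10, -0.18, -0.34, -0.33 and -0.24.

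**Figure D3:**
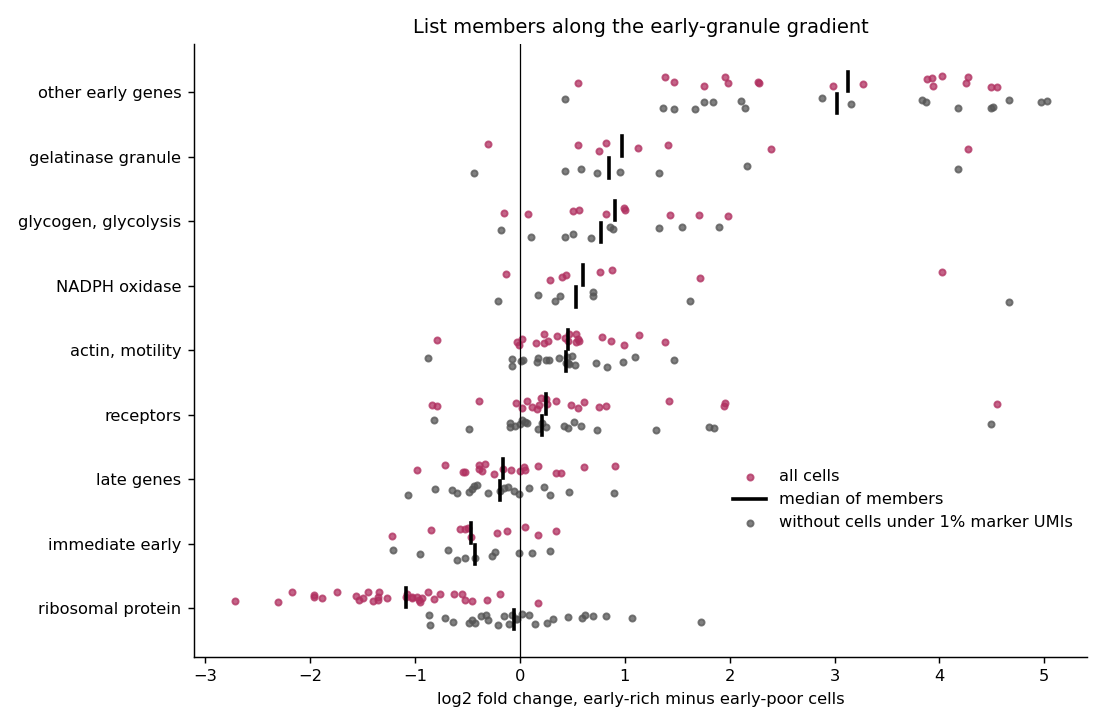
Log2 fold change of early-rich minus early-poor cells for the tested members of 9 lists, with all cells (red) and without cells under 1% of UMIs in neutrophil markers (gray); black bars are medians. Other early genes lie to the right of 0 in either set, and ribosomal protein genes have a median of -1.08 with all cells and -0.06 without the low-marker cells.

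Ribosomal protein genes were lower in early-rich cells, and the low-marker cells moved with this result. Of 34 tested genes 27 fell, with a median of -1.08. Many ribosomal protein genes have near-identical pseudogenes, so that single levels are uncertain. Their sum was 9528, 10507 and 9865 scaled CPM in early-rich cells, against 18117, 22723 and 14127 in early-poor cells. The early-rich range held 0, 0 and 2 low-marker cells in mice 1, 2 and 3, and the early-poor range held 8, 14 and 6. Without low-marker cells the sums were 9368, 10298 and 9010 in early-rich cells, against 10060, 10884 and 10346 in early-poor cells. Then 28 genes were tested, 3 fell, 1 rose and the median was -0.06. T cell markers had 36, 33 and 18 UMIs in early-rich cells, against 51, 67 and 6 in early-poor cells, and MHC class II genes had 0, 0 and 0, against 15, 32 and 41. Of the T cell marker UMIs in early-rich cells 87 were of Cd3d, while Cd3e, Cd3g and Trbc2 had 0 there.

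The 10 largest decreases therefore hold 4 ribosomal protein genes. Among them Rpl14 changed by -2.72, Rps19 by -2.17 and Rps20 by -1.96. Npm1, a nucleolar chaperone of ribosome assembly, changed by -2.69, and Gm11942, annotated as a processed pseudogene, by -2.44. Without the low-marker cells Gm11942 stood at -1.19, while Rpl14, Rps19, Rps20 and Npm1 were too low to be tested. The other 4 large decreases were also called without these cells. Gngt2, a gamma subunit of G proteins, had 60.7, 135 and 148 scaled CPM in early-rich cells, against 625, 553 and 604 in early-poor cells (log2 fold change -2.42 ± 0.26, edgeR adjusted p = 1e-06), and -2.51 without the low-marker cells. Its call was lost when cells were ranked by Camp, Ngp and Ltf alone. Over the alternatives its log2 fold change lay between -3.16 and -0.588.

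The remaining decreases rest on fewer UMIs. Ccdc146, a coiled-coil protein gene, had 20.2, 8.43 and 0 scaled CPM in early-rich cells, against 107, 88.5 and 164 in early-poor cells (log2 fold change -3.37 ± 0.71, edgeR adjusted p = 0.00159). Clec4n, the gene of the C-type lectin receptor dectin-2, changed by -2.28, and Pptc7, a mitochondrial phosphatase gene, by -2.16. When ranges were formed without the low-marker cells, Haus8, Clec4a3, B9d2, Letm2, Arhgap5 and Dclre1c filled the places of the ribosomal genes, Npm1 and Gm11942. In that fit Clec4a3, another C-type lectin receptor gene, stood at -1.92 and Arhgap5, a regulator of small GTPases, at -1.75. Without mouse 2 Ccdc146, Clec4n and Pptc7 lost their calls at -3.41, -2.03 and -1.87. Clec4n also lost its call when cells were ranked by Camp, Ngp and Ltf alone, and over the alternatives it lay between -2.84 and -0.0607. DESeq2 did not call Pptc7.

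Transcription factors and interferon-stimulated genes gave few calls, in shares near the 14.8% higher and 9.73% lower of all genes. Of 11 tested factors Nfe2, the partner of small Maf proteins, rose by 1.27, Mxd1, a Myc antagonist, by 0.44, and Klf6 fell, with a median of -0.00. Spi1, the myeloid master factor PU.1, stood at 0.29 (edgeR adjusted p = 0.117), and Cebpd, at -0.08, did not pass either. Of 9 tested interferon-stimulated genes Slfn4, a Schlafen family gene, rose by 1.58 and Ifitm3 by 1.78, while the median was -0.22. Isg15, the ubiquitin-like modifier of the interferon response, had 74.2, 135 and 95.6 in early-rich cells, against 137, 122 and 176 in early-poor cells, and the ranges overlapped. The stefin genes Stfa2 and Stfa2l1, with the uncertainty of near-identical copies, rose by 2.34 and 0.58.

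Blood cells were compared with tumor cells to show where the circulating population differs. UMIs of cells chosen by the same rules were summed by mouse and tissue, giving 106, 564 and 171 tumor cells of hashtags 1, 2 and 3. Of 3530 genes tested with edgeR, 1063 (30.1%) were higher and 1070 (30.3%) lower in blood. Tissue, library and the way of releasing cells cannot be told apart in this design. In tumor, 291 of 947 cells (30.7%) had under 1% of UMIs in the neutrophil markers, against 34 of 1534 (2.22%) in blood.

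The 6 neutrophil markers were all higher in blood, with a median log2 fold change of 1.60 beside 0.04 over all genes. Cxcr2 had 6586, 6265 and 6302 scaled CPM in blood, against 910, 892 and 1038 in tumor, a log2 fold change of 2.76 (adjusted p of edgeR = 2.15e-12). Mmp8 had 1068, 891 and 931 in blood, against 313, 260 and 224 in tumor (log2 fold change 1.89). For both genes the lowest blood mouse was well above the highest tumor mouse. S100a8 differed by 1.34, S100a9 by 1.24, Csf3r by 1.59 and Retnlg by 1.61 on the log2 scale, each higher in blood.

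Early granule genes were higher in blood as well, with more spread between mice. Of the 8 ranking genes 7 passed, and Chil3 at 0.54 did not (edgeR adjusted p = 0.328). Camp had 3450, 5376 and 1758 scaled CPM in blood, against 104, 2379 and 533 in tumor, and the ranges overlapped (log2 fold change 1.58 ± 0.50, edgeR adjusted p = 0.0118). Without the third tumor mouse Camp stood at 1.31 and lost its call (edgeR adjusted p = 0.0602). The second tumor mouse, the highest of the tumor samples for Camp, weighed most on these values: without it Camp stood at 3.30, Ltf at 2.39, Cd177 at 3.56 and Chil3 at 3.51, where Chil3 passed (edgeR adjusted p = 0.0013). Ngp differed by 0.90 and Ltf by 0.95, calls lost without the first tumor mouse at 0.62 and 0.70, and both overlapped between tissues, whereas Wfdc21 at 1.90 and Ifitm6 at 1.62 did not. DESeq2 called none of Camp, Ngp and Ltf. Of 15 alternatives, the call of Ltf was lost in 6, that of Ngp in 3 and that of Camp in 2. Of 20 other early genes tested 16 were higher and 3 lower in blood. Anxa1 differed by 1.88, and Lyz2 by 0.64, a call lost in 4 of 15 alternatives, such as without the first tumor mouse at 0.38. Olfm4, a secondary granule gene made in a subset of neutrophils, was lower in blood with 27.1, 50.6 and 72.8, against 134, 360 and 234 in tumor (log2 fold change -2.54).

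Immediate early genes were mostly lower in blood. Of 15 tested, 12 were lower and 1 higher in blood, with a median of -1.49. Ier3 had 128, 112 and 101 scaled CPM in blood, against 1999, 1467 and 1758 in tumor (log2 fold change -3.89). Il1b differed by -0.76 and Junb by -0.56. Actin genes gave 16 higher and 2 lower in blood of 22 tested, with Tmsb4x at 1.33 and Actb at 1.29. The gradient and the comparison of tissues use the same blood cells, and no overlap between them was tested.

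**Figure D4:**
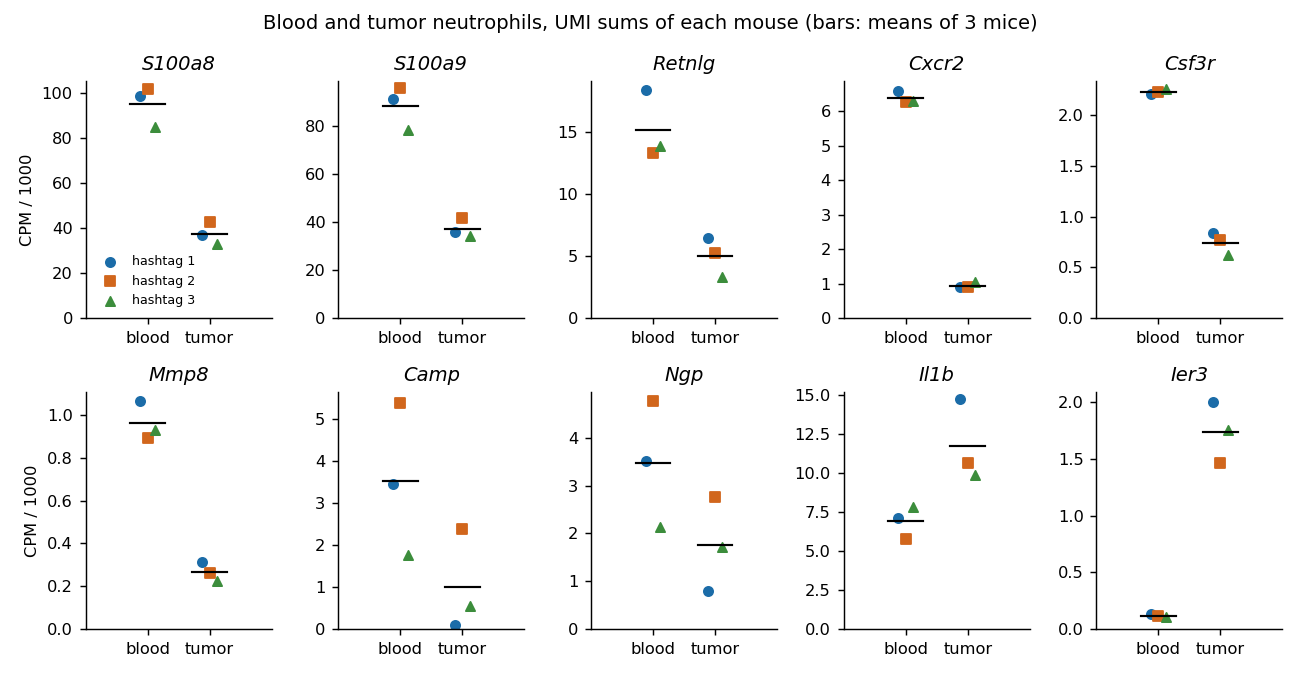
CPM after TMM scaling, divided by 1000, of 10 genes in blood (left) and tumor (right) cells, with a point for each hashtag and a bar at the mean. The 6 neutrophil markers do not overlap between the tissues and are higher in blood, Camp and Ngp overlap, and Il1b and Ier3 are lower in blood.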

How the data were processed

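The authors deposited raw counts, UMIs per gene and barcode and hashtag counts per barcode, 1 table of each kind for blood and for tumor. STAR and the genome build mm10 are named without versions in the submitters' processing notes; how genes were counted, on which annotation and after which choice of barcodes is not given in the sources used here, and neither is the treatment of reads shared by near-identical genes. Hemoglobin genes were left out of gene lists and totals. There were 15236 genes in the blood table and 15901 in that of the tumor, with 12243 in both, and a gene listed for 1 tissue only was given 0 in the other.

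Levels are UMIs of a mouse's summed cells per 1000000 (CPM). Total UMIs per mouse were 325689 to 430605 in blood and 70612 to 385370 in tumor, so precision is lowest in tumor mouse 1. Sums entered edgeR 4.0.16 under R 4.3.3, whose quasi-likelihood test followed the default filter on low counts and TMM scaling, with Benjamini-Hochberg adjustment over all genes tested and calls at 0.05. Along the gradient the mouse was a block, since both ranges come from the same animals, and ties were ordered at random with a fixed seed. Between tissues no block was used, since the labels do not say that hashtags of the same number mark the same animal. Residual variance used Pearson residuals of a negative binomial model (theta 100) within a mouse. Intervals and limits for 0 counts cover counting error only. The tests were checked on simulated sums with a common dispersion and no difference between mice. The ranking of cells and the low-marker cells were not simulated, so this check does not cover them.

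Named genes are the 20 most abundant and 20 most variable genes without mitochondrial genes, the 10 largest changes each way with 1 direction in all mice, members of fixed lists, and, between tissues, markers, list members and abundant genes. Some members under these rules are not reported here. Stfa2 and Saa3, and the decreases without low-marker cells, were named after their values were seen. The members, lists, ranking and tests were chosen with earlier results of these data known. Alternatives were DESeq2 1.42.0, its size factors, no filter, other limits on genes (300), mitochondrial share (5%) and hashtag share (90%), other rankings and ranges, thinning to the 25th percentile of UMIs, other models of variance, and leaving out mice or cells with at least 2 UMIs of another type's markers. Leaving out low-marker cells or cells with at least 5% of UMIs in the ranking genes was added after seeing the data.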

Additional observations from a re-analysis of the deposited data

How the results depend on the processing

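The calls along the gradient depended on depth, tool and number of mice. Of 253 higher and 166 lower genes, DESeq2 called 111 and 43, and thinning left 99 and 70 of 802 tested, or 89 and 61 of 766 when the low-marker cells were also left out. Ranking by Camp, Ngp and Ltf alone gave 116 and 58, a mitochondrial limit of 5% gave 136 and 103 of 659 tested, and a hashtag share of 90% gave 163 higher. Leaving out a mouse gave 64 to 261 higher and 10 to 175 lower genes. Fewer genes or samples entered the thinned, 5%, 90% and leave-one-out fits, and the cause of the other differences was not tested. Without the replicate block the counts were 243 and 159, and the other alternatives stayed within 1.5 times.

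Over the named genes along the gradient, 1155 alternative values kept direction and side of the threshold, 150 lost the call and 22 reversed. With Camp, Ngp and Ltf as the ranking, log2 fold changes reversed to 0.0575 for Rps19, 0.26 for Rps20, -0.30 for Cxcr2, -0.27 for Wfdc17, 0.12 for Klf6, -0.0346 for Lcp1, -0.0308 for Mxd1, -0.0616 for Hmgb2 and -0.0632 for Stfa2l1. With early minus late share as the ranking they reversed to 1.17 for Rpl14, 1.29 for Gm11942, 2.77 for Rps19, 4.69 for Rps20, -0.17 for Cxcr2 and -0.0642 for Mxd1. With the mitochondrial limit of 5% they reversed to -0.32 for Cxcr2, -0.11 for Wfdc17 and -0.56 for Stfa2l1. Cxcr2, which was not called, also stood at -0.016 with 4 ranges, -0.0512 without low-marker cells, -0.0367 when these were left out and cells thinned, and -0.000149 without cells holding other markers.

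Between tissues, 1063 higher and 1070 lower genes became 658 and 711 of 2040 tested with the mitochondrial limit of 5%, and 844 to 1138 and 836 to 1216 when a mouse was left out. With the hashtag number as a replicate block they were 954 and 969, and same-numbered hashtags did not deviate together (correlations of 0.0233, 0.0596 and -0.0207 over 1482 genes). Of the named genes' values there 309 kept their call, 18 lost it and 3 gained it. Between 18 and 20 of the 20 most abundant genes and between 14 (theta 10) and 19 of the 20 most variable genes were the same under each alternative. The ratio of median UMIs of early-rich over early-poor cells was 1.71, and 1.62 to 1.79 when a mouse was left out. With 1 library for each tissue and 3 mice, low genes such as Camp in tumor mouse 1 set the limit of precision.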

Other observations

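Among the T cell markers Cd3d stood apart from the others in the blood cells. It had 15 UMIs in the 33 low-marker cells and 116 UMIs in the other cells. Over all assigned cells, 87 of its UMIs lay in the early-rich and 25 in the early-poor range. Cd3e, Cd3g and Trbc2 had 0 UMIs in early-rich cells and 10, 13 and 68 in early-poor cells. What gives the Cd3d UMIs in marker-rich cells was not tested.

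The mitochondrial ribosomal RNA mt-Rnr2 took 5.49, 5.28 and 5.94% of UMIs in mice 1, 2 and 3, nearly all of the mitochondrial share of 5.69, 5.47 and 6.15%. The blood cells of mice 1, 2 and 3 had 10555, 10365 and 9736 genes with at least 1 UMI.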
